A study of Mus musculus with 15 samples.

Results

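The transcriptional end of the Hippo pathway was followed in 15 mouse samples through 10 genes, taken as the rows of the deposited matrix that carry their names, out of 55359 genes in all. The genes are the co-activators Yap1 and Wwtr1 (TAZ), the DNA-binding factors Tead1, Tead2, Tead3 and Tead4, the target genes Ccn1 (CYR61) and Ccn2 (CTGF), and the feedback inhibitors Amotl2 and Lats2. RNA was sequenced in 5 groups of 3 samples. 46LCNEC_cell is an adherent line, at passage 17, grown from a lung tumor of a mouse given adenoviral Cre under the CMV promoter, which acts in many lung epithelial cells, and 57SCLC_cell is a line that grows as floating aggregates, at passage 11, from a mouse in which adenoviral Cre was driven by the keratin K5 promoter of basal cells. Both donors were QKO mice, whose alleles include a deletion of Rbl1 and floxed Rb1 and Trp53, so all tumor cells compared here come from the same engineered genotype. 46LCNEC_allo and 57SCLC_allo are subcutaneous tumors grown from the 2 lines with Matrigel in immunocompetent QKO hosts (tumors 312, 319 and 321 and tumors 275, 316 and 317), and Lung is normal lung tissue of littermates of such hosts, whose age and exact genotype are not given in the sources used here. Each line is 1 line from 1 mouse, and its 3 samples are separate dishes (46LCNEC), flasks (57SCLC) or tumors, so the p-values below measure only the spread between these samples.

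In the mouse genome (build GRCm39, GENCODE M39) the co-activators lie at chr9:7932000-8004661 (Yap1) and chr3:57363067-57483331 (Wwtr1), and the factors at chr7:112278522-112506014 (Tead1), chr7:44865172-44883071 (Tead2), chr17:28550645-28569791 (Tead3) and chr6:128201251-128277786 (Tead4). The targets and inhibitors lie at chr3:145352720-145355738 (Ccn1), chr10:24471333-24474900 (Ccn2), chr9:102593836-102610617 (Amotl2) and chr14:57926960-57995845 (Lats2). All 10 are protein-coding genes, and reads were counted over their exons.

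The Hippo pathway is a kinase cascade that holds YAP and TAZ in the cytoplasm when cells are crowded or detached. When the cascade is off, both proteins enter the nucleus, bind TEAD factors and switch on genes of growth, adhesion and matrix, among them CCN1 and CCN2, together with inhibitors such as AMOTL2 and LATS2 that feed back on the pathway. In human small cell lung cancer, loss of YAP is a known mark of neuroendocrine cells, while cells without neuroendocrine features keep it.

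The samples differed in markers that bear on these genes. The 6 neuroendocrine markers summed to between 48931 and 68481 normalized counts (reads divided by the size factor of the sample) in 57SCLC_cell and to between 45133 and 57232 in 57SCLC_allo, but to at most 59.7 in 46LCNEC_cell and 46LCNEC_allo, so the neuroendocrine part of the name 46LCNEC has no counterpart in these 6 transcripts. For protein, the study reports positive stains for NCAM in LCNEC cells and for chromogranin A (gene Chga) in LCNEC allografts. It also reports SSTR2 and CGRP in the cell lines and CGRP in the subcutaneous tumors. Of these proteins only chromogranin A has its gene among the 6 markers. The 4 general epithelial markers, among them Krt8, summed to between 226 and 238 in 46LCNEC_cell and between 41583 and 46741 in 57SCLC_cell, whereas 7 fibroblast markers summed to between 82234 and 92731 in 46LCNEC_cell, and to between 25.0 and 32.2 in 57SCLC_cell. The sum in 46LCNEC_cell was carried by the collagen genes Col1a2 and Col1a1, at 50209 and 20963 on average, while Dcn averaged 11.1 against 2535 in Lung and Lum was not detected. Against Lung, 2 of the 7 markers were called higher and 3 lower, where 20.6% and 35% of all genes were. Lung held its alveolar and airway markers at a sum of 305866 to 409255. Reads per sample ran from 9480244 in tumor 275 to 44876572 in 57SCLC flask C, and this flask stood apart from flasks A and B, since its counts over all genes gave a chi-square of 143.5 and 126.7 for each degree of freedom, against 2.80 between A and B.

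Yap1, the co-activator for which the pathway is best known, was abundant in 46LCNEC cells and in normal lung and low in the 57SCLC line. It stood at 6321, 5484 and 5812 normalized counts in 46LCNEC dishes A, B and C and at 5804, 6129.6 and 6208 in the lungs CT3, CT4 and CT5. In 57SCLC flasks A, B and C it stood at 344, 384 and 616, and in 57SCLC tumors 275, 316 and 317 at 673, 745 and 742. These 2 groups did not overlap with each other or with any other group. In the 46LCNEC tumors Yap1 was at 64199.8 in tumor 312 but at 5426 and 4464 in tumors 319 and 321, the latter 2 just under the range of the cultured line.

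Wwtr1, which encodes the second co-activator TAZ, was near its detection limit in cultured 57SCLC cells. Its normalized counts were 7533, 7034 and 6829 in 46LCNEC_cell, 7799, 11680.0 and 8121 in 46LCNEC_allo and 7360.2, 6826 and 7774 in Lung. In 57SCLC flasks A, B and C there were 3, 0 and 3 reads among 37368046 to 44876572, a level at or under the floor of 3 reads that was taken as not detected. In the 57SCLC tumors Wwtr1 was at 558, 525 and 688 normalized counts, so the gene was present in every tumor and in none of the flasks above that floor.

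**Figure D1:**
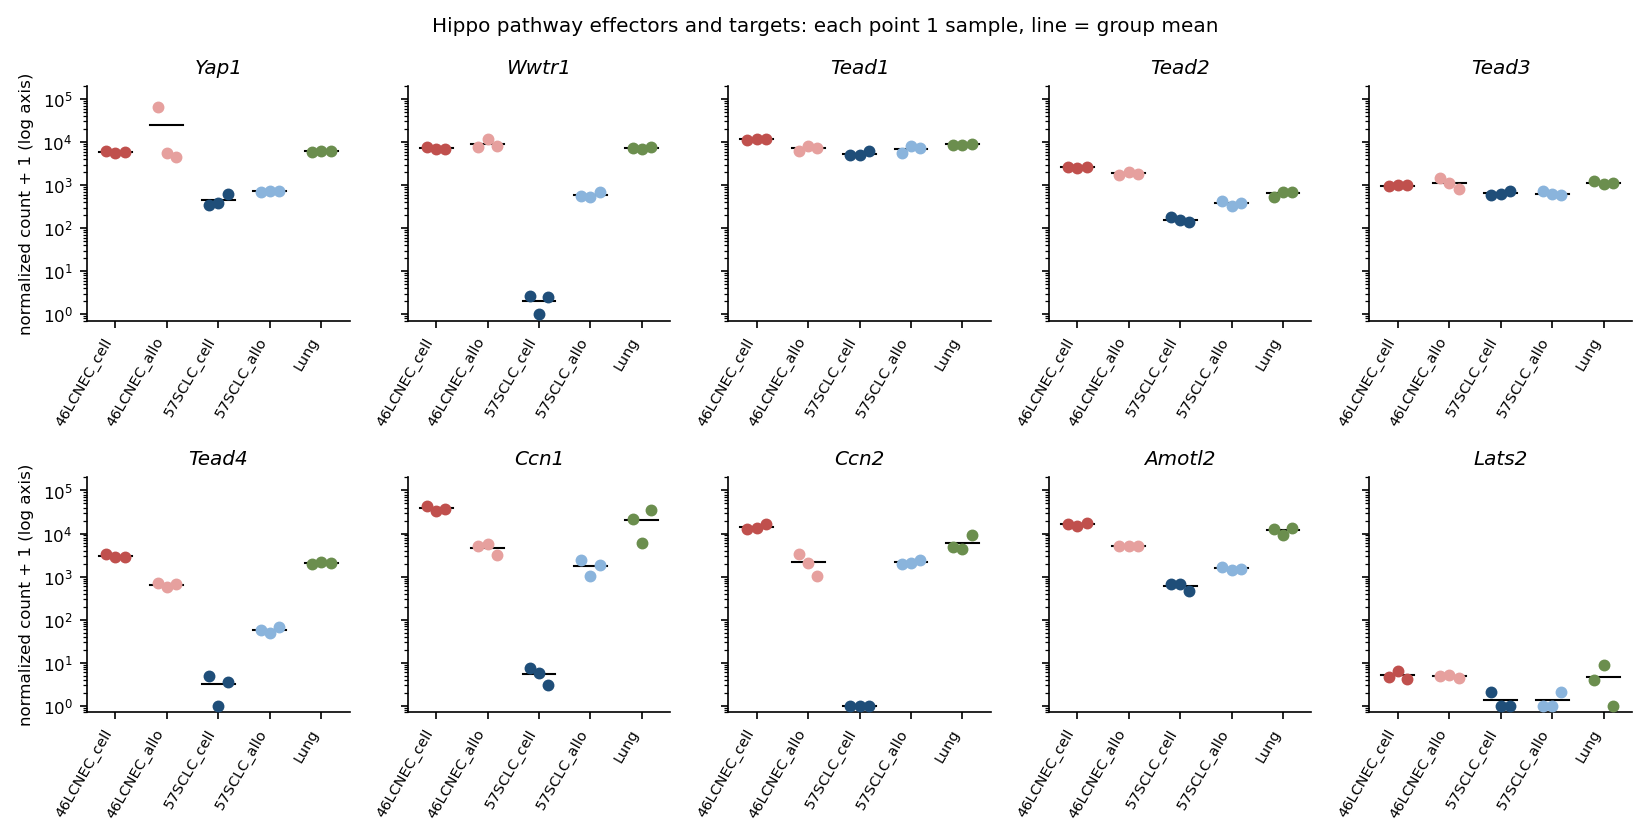
Normalized count plus 1 on a log axis (y) by group (x) for the 10 genes, with 1 point for each sample and a line at the group mean of 3 samples. Wwtr1, Tead4, Ccn1 and Ccn2 drop to a few counts or 0 in 57SCLC_cell, Tead1 and Tead3 stay within a narrow band across the groups, 1 tumor of 46LCNEC_allo carries Yap1 at 64199.8, and Lats2 is under 10 in all samples.

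Among the TEAD factors, through which YAP and TAZ reach DNA, Tead1 and Tead3 were the steady members and Tead4 and Tead2 the variable ones. Tead1 ranged only from 4944 normalized counts in 57SCLC flask A to 11875 in 46LCNEC dish B over all samples. It was at 11108, 11875 and 11463 in 46LCNEC_cell, at 6338, 7919 and 7239 in 46LCNEC_allo, at 4944, 5066 and 6118 in 57SCLC_cell, at 5518, 8049 and 7381 in 57SCLC_allo and at 8568, 8661 and 9174 in Lung. The tumors of both lines overlapped for this gene, as did the 57SCLC tumors and flasks.

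Tead3 ranged from 573 to 1479 normalized counts over all samples. Its values were 940.1, 984 and 990.2 in 46LCNEC_cell, 1479, 1121 and 829 in 46LCNEC_allo, 573, 615 and 737 in 57SCLC_cell, 709, 616 and 574 in 57SCLC_allo and 1218, 1063 and 1118 in Lung. The 57SCLC samples lay below all others for this gene, in culture and as tumors alike, and these 2 groups overlapped.

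Tead4 varied most of the 4 factors. It was at 3344, 2906 and 2812 normalized counts in 46LCNEC_cell and at 1942, 2171 and 2084 in Lung, fell to 702, 579 and 657 in 46LCNEC_allo, and stood at 57.5, 46.7 and 67.0 in 57SCLC_allo. In 57SCLC flasks A, B and C it had 7, 0 and 5 reads. No 2 of the 5 groups overlapped for Tead4.

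Tead2, a factor of embryonic and progenitor tissue, was highest in the 46LCNEC line. It was at 2695, 2526 and 2617 normalized counts in 46LCNEC_cell and at 1740.4, 2039.8 and 1811 in 46LCNEC_allo, against 539.7, 691 and 695 in Lung. The 57SCLC flasks held 176, 153 and 139 and the 57SCLC tumors 428, 324 and 384. The 5 groups were again fully separated, and normal lung lay between the 2 tumor lines.

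Counted per kilobase of exon, so that genes of different length can be set side by side, Tead1 led the family in every group. It made up 43.0% ± 1.93 (SD, n = 3) of the summed Tead level in 46LCNEC_cell, 46.0% ± 3.84 in 46LCNEC_allo, 50.8% ± 0.899 in Lung, 76.0% ± 0.723 in 57SCLC_cell and 74.4% ± 5.86 in 57SCLC_allo. Tead4 held 25.3% ± 1.94 of the sum in 46LCNEC_cell and 26.7% ± 1.08 in Lung but 0.0679% ± 0.0654 in 57SCLC_cell. The summed Tead level itself was 1967 ± 34.3 normalized counts per kilobase in 46LCNEC_cell, 1275 ± 41.1 in Lung and 520.5 ± 57.3 in 57SCLC_cell, and the lowest 57SCLC flask held 482. The 57SCLC cells thus kept Tead transcripts, mostly Tead1, where the co-activators were scarce.

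On the same scale Yap1 and Wwtr1 were about even in 46LCNEC_cell and Lung, with Yap1 at 50.9% ± 1.17 and 51.1% ± 1.79 of their sum (SD, n = 3). In 57SCLC_cell Yap1 made up 99.8% ± 0.188, and in 57SCLC_allo 60.7% ± 3.26. The sum of both was 1229 ± 71.3 normalized counts per kilobase in 46LCNEC_cell, 1264 ± 48.3 in Lung, 47.9 ± 15.7 in 57SCLC_cell and 127 ± 9.52 in 57SCLC_allo. Taking the longest transcript as the length lowered the Yap1 share in 46LCNEC_cell to 42.3% and in Lung to 42.4%, and left 57SCLC_cell at 99.7%.

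**Figure D2:**
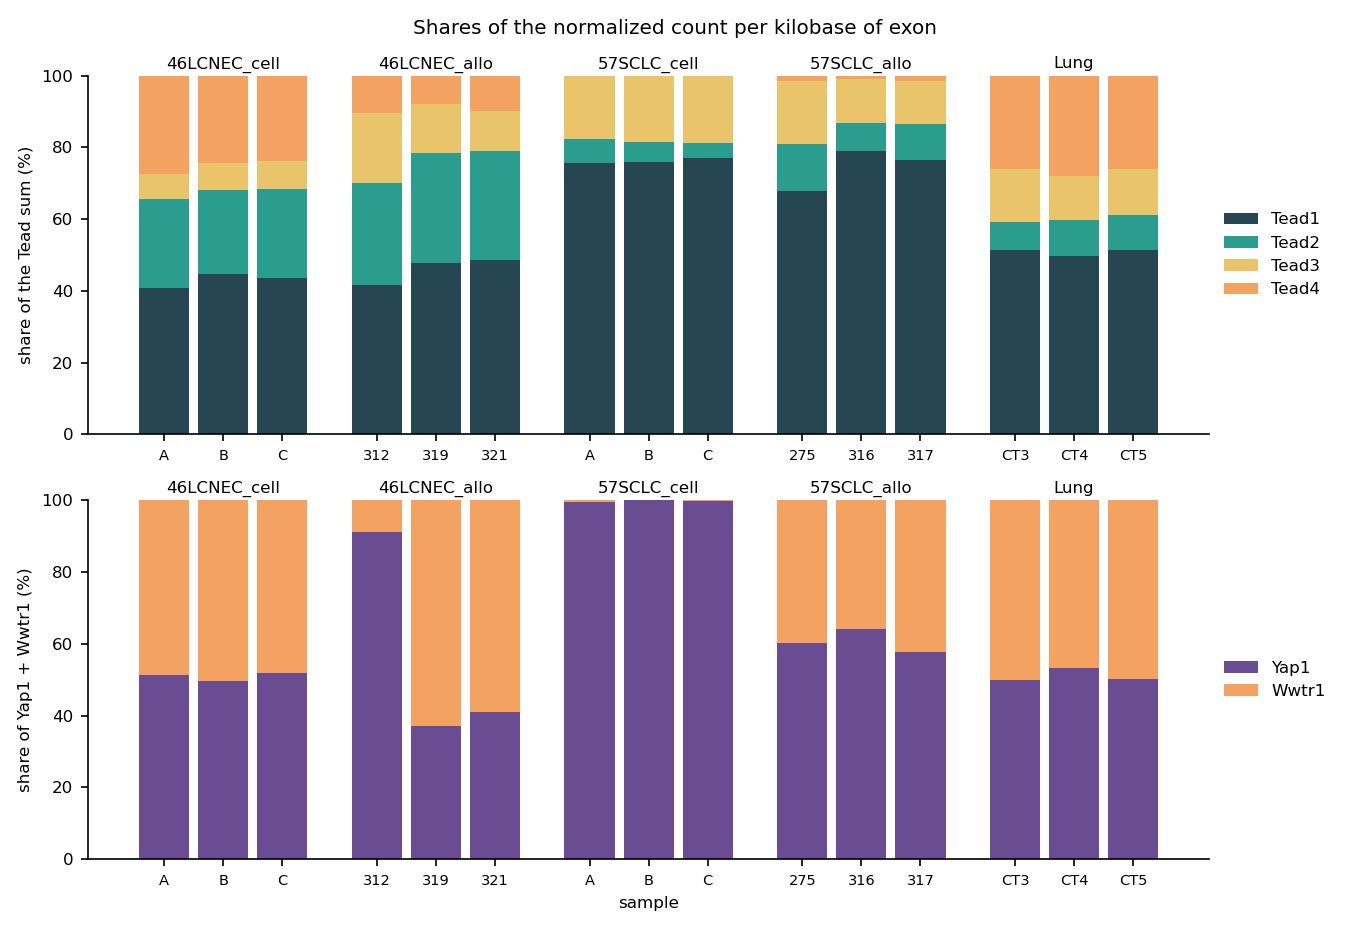
Share of each gene in percent (y) of the summed level per kilobase of exon for the 4 Tead genes (top) and for Yap1 and Wwtr1 (bottom), with 1 bar for each of the 15 samples (x). Tead4 fills 25.3% of the bars of 46LCNEC_cell and is not visible in 57SCLC_cell, and Yap1 fills 99.8% of the bars of 57SCLC_cell against 51.1% in Lung.

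The secreted matricellular proteins encoded by Ccn1 and Ccn2 are the most used readouts of YAP and TAZ activity. Ccn1 was at 44372, 32544 and 37651 normalized counts in 46LCNEC_cell, at 5083, 5730.0 and 3089.8 in 46LCNEC_allo and at 2365, 1016 and 1837 in 57SCLC_allo. In Lung it was spread more widely, at 21208, 6028 and 35505. In 57SCLC flasks A, B and C there were 12, 8 and 4 reads of Ccn1. By group mean the cultured lines therefore marked the 2 ends of the range, with both tumor groups between them. The ranges of 46LCNEC_cell and Lung overlapped, since lung CT5 lay above 46LCNEC dish B.

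Ccn2 followed the same order. It was at 12906, 13661 and 16801 normalized counts in 46LCNEC_cell, at 4926, 4316 and 9118 in Lung, at 3389, 2102 and 1049 in 46LCNEC_allo and at 1958, 2119 and 2445 in 57SCLC_allo. None of the 3 flasks of 57SCLC_cell held a read of Ccn2. The 2 tumor groups overlapped. Of the Ccn2 exon bases 36.5% are shared with exons of other genes of the matrix, most of all Gm15270. Of those of Ccn1 23.0% are shared, most of all with Gm17501. Since the strand setting of the counting is not given in the sources used here, reads in the shared bases cannot be assigned with certainty.

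Amotl2, an angiomotin that binds YAP and is itself induced by it, separated all 5 groups. It was at 16335, 15080.4 and 17609 normalized counts in 46LCNEC_cell, 12666, 9478 and 13312 in Lung, 5117, 5011 and 5159.6 in 46LCNEC_allo, 1688, 1433 and 1500.2 in 57SCLC_allo and 654, 668 and 473 in 57SCLC_cell. Unlike Ccn1 and Ccn2, it remained readily measurable in the 57SCLC flasks. Lats2, the kinase that phosphorylates YAP and TAZ, did not exceed 7.98 normalized counts in any sample and entered no test. Of its exon bases 28.2% are shared with exons of other genes of the matrix, most of all Gm49361, which held 42.8 to 166 normalized counts. The other 7531 of its 10486 exon bases are not shared. The cause of the low Lats2 values was not tested, and they are taken as uncertain.

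The promoters of these genes were read for the sequence that TEAD factors are known to bind, GGAATG, or CATTCC on the other strand. RefSeq windows of 300 bases (250 before and 50 after the transcript start, build GRCm38.p6) were at hand for Yap1, Wwtr1, Tead2, Tead3, Ccn1, Amotl2 and Lats2, 11 windows in all, and not for Tead1, Tead4 and Ccn2. Of these windows 8 held at least 1 match. They were the windows of Yap1, Ccn1 and Amotl2, both of Wwtr1, which overlap and share 1 match, 1 of 2 of Lats2 and 2 of 3 of Tead3, and that of Tead2 held none. Of all 32851 promoter windows 14.7% held a match. The windows of the 2 co-activators and of the 2 best measured targets follow, read 5′ to 3′ on the strand of the gene, with the match in capitals. They lie at chr9:8004547-8004846 on the minus strand for Yap1, with the match beginning 141 bases before the start, at chr3:57575861-57576160 on the minus strand for Wwtr1 (136 bases before), at chr3:145649936-145650235 on the minus strand for Ccn1 (103 bases before) and at chr9:102717554-102717853 on the plus strand for Amotl2 (65 bases before). A match describes these letters only and is not a measured binding site.
Yap1: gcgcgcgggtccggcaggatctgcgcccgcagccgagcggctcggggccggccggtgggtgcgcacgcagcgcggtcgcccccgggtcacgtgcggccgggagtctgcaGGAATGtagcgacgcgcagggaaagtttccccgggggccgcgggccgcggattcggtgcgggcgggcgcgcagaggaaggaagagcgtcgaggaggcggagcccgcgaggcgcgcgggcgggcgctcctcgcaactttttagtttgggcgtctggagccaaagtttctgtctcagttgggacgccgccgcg
Wwtr1: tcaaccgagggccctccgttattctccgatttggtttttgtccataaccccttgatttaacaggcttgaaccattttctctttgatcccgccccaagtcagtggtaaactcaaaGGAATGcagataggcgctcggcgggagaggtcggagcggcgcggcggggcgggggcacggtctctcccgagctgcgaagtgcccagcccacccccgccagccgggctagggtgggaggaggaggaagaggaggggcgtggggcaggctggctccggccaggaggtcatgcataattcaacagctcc
Ccn1: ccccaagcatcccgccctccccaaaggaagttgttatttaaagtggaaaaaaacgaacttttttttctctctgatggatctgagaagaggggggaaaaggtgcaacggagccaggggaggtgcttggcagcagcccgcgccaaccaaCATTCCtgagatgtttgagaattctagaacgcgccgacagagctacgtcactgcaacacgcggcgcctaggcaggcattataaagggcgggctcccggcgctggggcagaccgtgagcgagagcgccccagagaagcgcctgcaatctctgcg
Amotl2: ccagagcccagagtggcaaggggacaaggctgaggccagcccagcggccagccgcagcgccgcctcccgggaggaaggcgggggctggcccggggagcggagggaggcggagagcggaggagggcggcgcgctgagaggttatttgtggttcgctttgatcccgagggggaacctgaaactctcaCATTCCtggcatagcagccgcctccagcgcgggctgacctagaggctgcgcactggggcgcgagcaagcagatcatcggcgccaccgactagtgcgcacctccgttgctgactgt
The matches in Yap1 and Wwtr1 are in the forward sense and those in Ccn1 and Amotl2 in the reverse sense.

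The contrast between the 2 lines in culture asks how far the pathway differs between an adherent tumor line and a floating one of the same engineered genotype. A gene was called where limma, with Benjamini-Hochberg adjustment over all genes tested, gave an adjusted p that did not exceed 0.01 and the change was 2-fold or more. Of the 9 genes tested, 8 were lower in 57SCLC_cell than in 46LCNEC_cell and none was higher, where 22.2% of all genes tested were called lower and 23.9% higher. The median log2 change of the 9 was -4.78, against 0.00 for all genes. Yap1 was 13.1-fold lower (log2 change -3.75 ± 0.20 SE, adjusted p = 8.9e-07), Tead2 16.8-fold (-4.07 ± 0.10, adjusted p = 2.1e-08), Amotl2 27.3-fold (-4.78 ± 0.14, adjusted p = 3.4e-08) and Tead1 2.14-fold (-1.10 ± 0.10, adjusted p = 1.7e-05). Wwtr1 was at least 3942-fold lower and Ccn2 at least 7990-fold lower, both bounds set by 3 reads in the shallowest flask. Ccn1 was 8515-fold lower and Tead4 1411-fold lower, from 4 to 12 reads and 0 to 7 reads in the 57SCLC flasks. Tead3 was 1.51-fold lower, short of the 2-fold limit (-0.61 ± 0.11, adjusted p = 0.0011). Scaling by library size alone, which moved the median of all genes from 0.00 to 0.23, brought Tead1 to -0.87 and so below the 2-fold limit. Without flask C the same comparison called 8 genes, and Yap1 stood at -4.01.

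In the tumors the gap between the lines was narrower. Of the 9 genes, 4 were lower in 57SCLC_allo than in 46LCNEC_allo and none was higher, where 14.2% of all genes were called lower and 16.1% higher, and the median log2 change was -1.73 against 0.01 for all genes. Wwtr1 was 15.6-fold lower (-3.95 ± 0.19, limma adjusted p = 1.5e-05), Tead2 4.92-fold (-2.30 ± 0.14, adjusted p = 3.3e-05) and Amotl2 3.31-fold (-1.73 ± 0.10, adjusted p = 2.4e-05). Tead4 had a log2 change of -3.49 ± 0.21 (adjusted p = 3.2e-05). Yap1 missed the threshold (-4.01 ± 0.96, adjusted p = 0.011) with tumor 312 in the group. Without that tumor it was called lower at -2.77 ± 0.13 (adjusted p = 8.5e-05). Ccn1 had -1.45 ± 0.36 (adjusted p = 0.013). Ccn2 (0.15 ± 0.39, adjusted p = 0.77) and Tead1 (-0.05 ± 0.17, adjusted p = 0.82) had changes smaller than their error. Without tumor 321, 7 genes were called lower. Library-size scaling called the same number of the 9 genes, 4, but moved the calls over all genes from 2821 higher and 2491 lower to 3579 higher and 1955 lower.

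**Figure D3:**
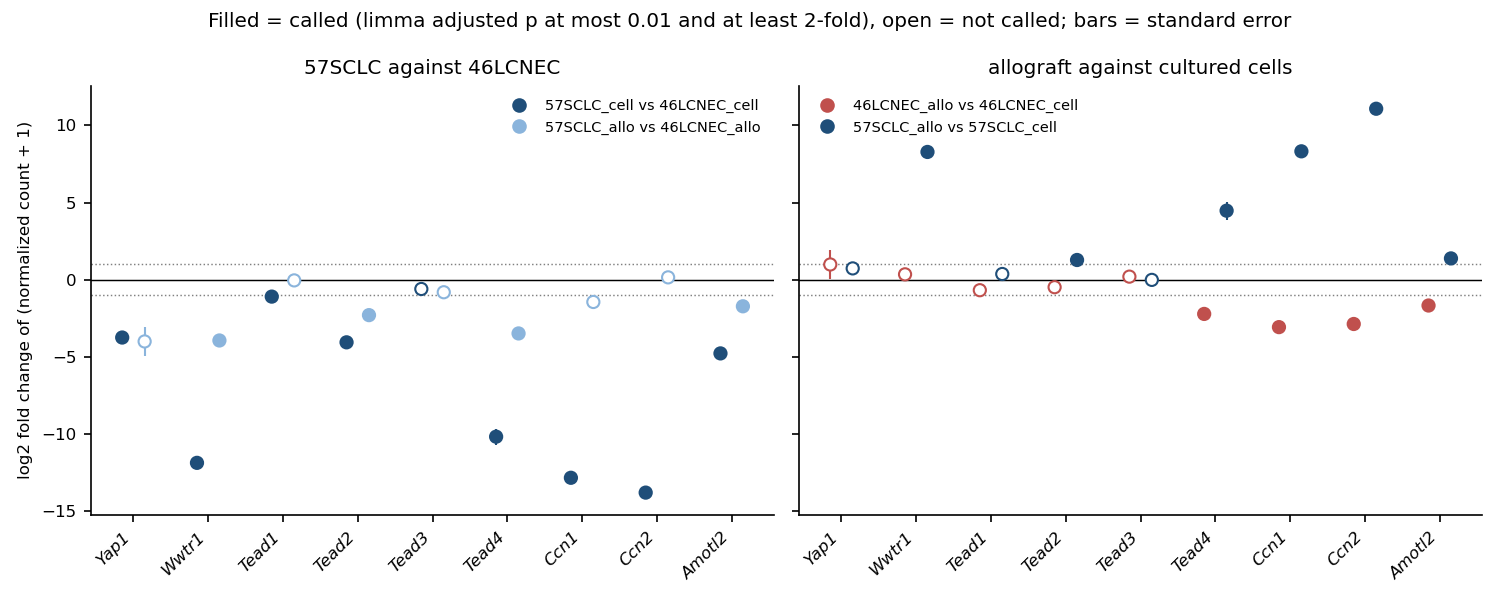
Log2 fold change of the normalized count plus 1 (y) with its standard error for the 9 tested genes (x), between the lines on the left (cells dark, tumors light) and between tumors and cultured cells on the right (46LCNEC red, 57SCLC blue), with filled points for called genes and dotted lines at 2-fold. On the right, Tead4, Ccn1, Ccn2 and Amotl2 lie below 0 in 46LCNEC and above 0 in 57SCLC, and the points of Wwtr1 and Ccn2 that involve 57SCLC_cell rest on 3 or fewer reads for each flask.

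Growth as a tumor went with opposite changes in the 2 lines. In 46LCNEC, 4 of the 9 genes were lower in the tumors than in culture and none was higher, where 8.45% of all genes were called lower and 14.4% higher. Ccn1 was 8.24-fold lower (-3.08 ± 0.24, limma adjusted p = 8.7e-05), Ccn2 6.63-fold (-2.88 ± 0.38, adjusted p = 0.00085), Tead4 4.68-fold (-2.22 ± 0.12, adjusted p = 1.8e-05) and Amotl2 3.21-fold (-1.68 ± 0.10, adjusted p = 2.6e-05). Wwtr1 had 0.34 ± 0.17 (adjusted p = 0.12). Yap1 had 0.98 ± 0.92 (adjusted p = 0.40) with tumor 312 and -0.25 ± 0.13 without it. The 4 lower genes were thus targets and a Tead factor, and neither co-activator passed the test in either direction.

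In 57SCLC, 6 of the 9 genes were higher in the tumors than in culture and none was lower, where 14.4% of all genes were called higher and 2.29% lower. Wwtr1 was at least 326-fold higher and Ccn2 at least 1202-fold higher. Ccn1 was 388-fold higher and Tead4 26.6-fold higher, each from 12 or fewer reads in any flask, while Amotl2 was 2.57-fold (1.38 ± 0.15, limma adjusted p = 0.00014) and Tead2 2.43-fold higher (1.27 ± 0.16, adjusted p = 0.00038). Yap1 (0.73 ± 0.21, adjusted p = 0.023), Tead1 (0.37 ± 0.15, adjusted p = 0.090) and Tead3 (-0.02 ± 0.13, adjusted p = 0.93) were not called.

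Markers of fibroblasts, endothelium and leukocytes rose from culture to tumor in both lines. The called genes of the set rose as well in 57SCLC and fell in 46LCNEC. From 57SCLC_cell to 57SCLC_allo the sum of the 7 fibroblast markers went from 25.0 to 32.2 normalized counts up to 40542 to 62734, with Col3a1, Dcn and Lum not detected in the flasks and all 7 averaging over 50 in the tumors. The 6 endothelial markers went from 101 to 143 up to 2895 to 4046, with Cdh5, Kdr and Cldn5 not detected in the flasks, and the 5 leukocyte and macrophage markers from 274 to 303 up to 9054 to 18636, with Ptprc and Adgre1 not detected in the flasks. From 46LCNEC_cell to 46LCNEC_allo the fibroblast sum went from 82234 to 92731 up to 432572 to 854682, the endothelial sum from 401 to 480 up to 7645 to 11143, and the leukocyte sum from 330.0 to 384 up to 19235 to 44195. In culture 5 of the 7 fibroblast markers were already at 50 or more in every 46LCNEC dish. For these markers, host cells and tumor cells of 46LCNEC cannot be told apart. The part of host cells of these types in the values of Wwtr1, Tead4, Ccn1, Ccn2 and Amotl2 was not tested. In bulk RNA, fewer cells of a type and less RNA per cell cannot be told apart.

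The difference between the lines itself differed between culture and tumor for 7 of the 9 genes, tested as an interaction term over 12 samples, and all 7 had a positive term, meaning a smaller deficit of 57SCLC in tumors than in culture, where 10.8% of all genes had a positive and 6.78% a negative called term. The terms that do not rest on counts near 0 were 3.05 ± 0.18 for Amotl2 (limma adjusted p = 1.8e-07), 1.76 ± 0.18 for Tead2 (adjusted p = 1.6e-05) and 1.05 ± 0.20 for Tead1 (adjusted p = 0.0016). Those of Ccn2, Ccn1, Wwtr1 and Tead4 were fitted at 13.96, 11.40, 7.94 and 6.69 and depend on the pseudocount, since the 57SCLC flasks held 12 or fewer reads of each. Yap1 (-0.25 ± 1.05, adjusted p = 0.87) and Tead3 (-0.21 ± 0.26, adjusted p = 0.55) were not called. The term of Tead1 fell under the 2-fold limit, to 0.97, without tumor 312, to 0.99 without 57SCLC flask A and to 0.94 without tumor 316.

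Each group was also set against normal lung. The same 3 lungs serve all 4 of these comparisons, so they are not independent of each other. Lung is also a mixed tissue. Its 6 endothelial markers summed to between 102565 and 115264 normalized counts, against at most 11143 in any other group. The part of such cells in the differences from Lung given below was not tested, for the members and for the lists. Of the 9 genes, 2 were higher in 46LCNEC_cell than in Lung and none was lower, where 20.6% of all genes were called higher and 35% lower, so the count of higher genes was near that of all genes. These were Tead2 at 4.07-fold (2.03 ± 0.11, limma adjusted p = 1.4e-07) and Ccn2 at 2.36-fold (1.31 ± 0.25, adjusted p = 0.00087). Yap1 (-0.04 ± 0.08, adjusted p = 0.60) and Wwtr1 (-0.04 ± 0.08, adjusted p = 0.67) differed from Lung by less than their error. In 57SCLC_cell 7 of the 9 were lower than in Lung and none was higher, where 32.7% of all genes were called lower and 21.1% higher. Yap1 was 13.5-fold lower (-3.80 ± 0.20, adjusted p = 9.8e-07), Amotl2 19.8-fold (-4.30 ± 0.17, adjusted p = 2.3e-07), Tead2 4.12-fold (-2.03 ± 0.15, adjusted p = 6.6e-06), Wwtr1 at least 4046-fold and Ccn2 at least 3383-fold, with Ccn1 and Tead4 the other members called. Tead1 and Tead3 were lower by less than 2-fold (-0.72 ± 0.10 and -0.83 ± 0.11).

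The tumors were compared with the same lungs. In 46LCNEC_allo, 1 of the 9 genes was higher than in Lung, where 13.4% of all genes were called higher, and 2 were lower, where 22.1% were, so both counts were near those of all genes. Tead2 was 2.90-fold higher (1.54 ± 0.14, limma adjusted p = 0.00014), Tead4 was 3.20-fold lower (-1.68 ± 0.11, adjusted p = 4.3e-05) and Amotl2 2.32-fold lower (-1.20 ± 0.14, adjusted p = 0.00053). Ccn1 (-1.89 ± 0.64, adjusted p = 0.039) and Ccn2 (-1.57 ± 0.47, adjusted p = 0.025) did not pass. In 57SCLC_allo, 6 of the 9 were lower than in Lung, where 26.9% of all genes were called lower, and none was higher, where 18.9% were. Tead4 was 36.2-fold lower, Wwtr1 12.4-fold, Yap1 8.40-fold (-3.07 ± 0.07, limma adjusted p = 5.5e-08), Amotl2 7.67-fold and Ccn2 2.81-fold. Ccn1 had -3.33 ± 0.62 (adjusted p = 0.0015). Without lung CT3, Ccn1 had -3.16 with an adjusted p of 0.011 and was not called.

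Yap1 in tumor 312 of 46LCNEC_allo was 13-fold above the mean of tumors 319 and 321, the 6th highest ratio among 12642 genes with at least 50 normalized counts in each of the 3 tumors. The genes around it on chromosome 9 were high in the same tumor. Of 23 named genes that start within 500 kb of the Yap1 start (build GRCm39), 5 reached 50 normalized counts in each of the 3 tumors, and all 5 were between 6.86-fold and 37.2-fold higher in tumor 312, namely Cep126, Cfap300, Tmem123, Birc2 and Birc3. Over all 12642 genes, 0.253% were at least 4-fold higher in this tumor and the median ratio was 0.998. On a wider view of the chromosome, a range and limit chosen after the values were seen, 14 of 15 measured genes, Yap1 among them, between 2.71 Mb on the side of lower coordinates and 1.23 Mb on the other side of Yap1 were at least 4-fold higher. The ends of this range are the outermost genes that were at least 4-fold higher, so this count is partly set by that choice. The genes farther out on the lower side had ratios of 2.37 to 3.83, apart from Gm5362 at 0.682 and Gm7390 at 1.18. The 26 measured genes from 5 Mb to 12 Mb on the side of higher coordinates had ratios of 0.587 to 1.32. The cause was not tested.

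**Figure D4:**
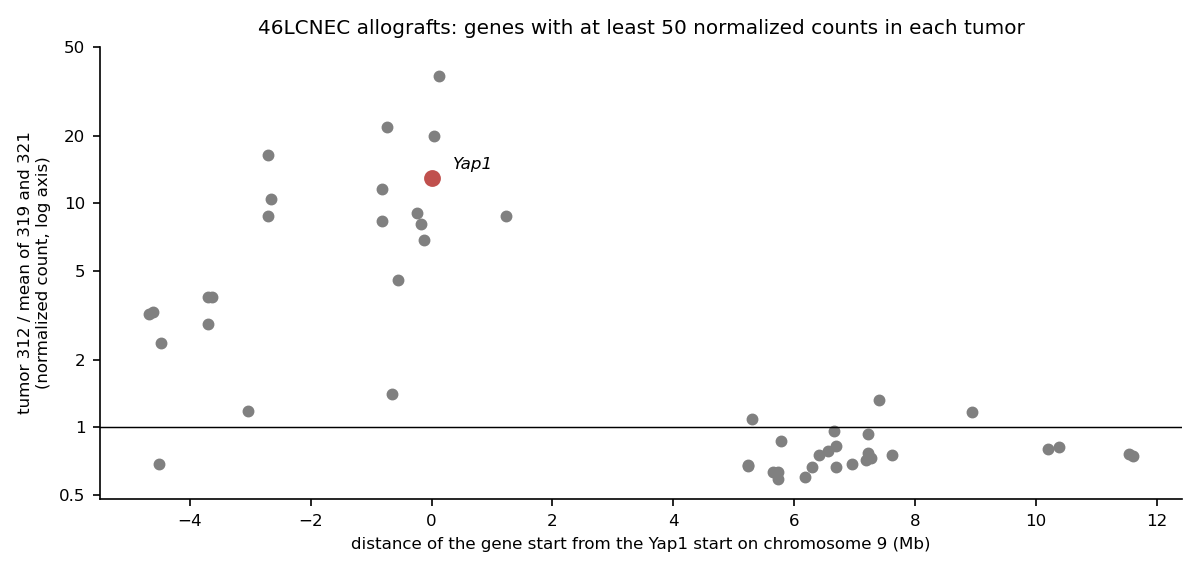
Ratio of the normalized count in tumor 312 to the mean of tumors 319 and 321 (y, log axis) by distance of the gene start from that of Yap1 in megabases (x), with 1 point for each of 49 genes of chromosome 9 that have at least 50 normalized counts in each tumor. Yap1, in red, is at 13 within a run of raised genes, and the genes more than 5 Mb to the right are between 0.587 and 1.32.

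The other genes in tumor 312 did not move with Yap1 in one direction. Ccn1 and Amotl2 stood within the range of tumors 319 and 321, at 1.15 and 1.01 times their mean. Ccn2 was at 2.15 times and Tead3 at 1.52 times that mean, Tead4 at 1.14, and Tead2, Tead1 and Wwtr1 were at 0.904, 0.836 and 0.788. With 1 such tumor these ratios have no replicate check. In the 57SCLC line flask C, which stood apart, had Yap1 at 1.69 times the mean of flasks A and B and Amotl2 at 0.716 times.

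Upstream of the co-activators, 22 genes of the kinase cassette and its regulators were all measured. In 57SCLC_cell against 46LCNEC_cell 9 of them were lower and 1 was higher (22.2% and 23.9% of all genes), with a median log2 change of -0.62 against 0.00 for all genes. Of the core kinase genes, named here after their values were seen, Stk3 was lower (-1.35 ± 0.16), whereas Stk4 (0.80 ± 0.14, under the 2-fold limit) and Lats1 (0.10 ± 0.10, adjusted p = 0.39) were not called. The 4 with the smallest adjusted p were Wwc2, which codes for a scaffold of the LATS kinases (2.02 against 3483 normalized counts on average), the giant cadherin gene Fat4 (123 against 5265), the LIM protein gene Ajuba (9.46 against 4347) and Dchs1, which codes for the ligand of FAT4 (31.4 against 988). Their limma adjusted p-values were 4.5e-09, 8.8e-08, 2.9e-07 and 3.4e-07. The 1 higher gene, named after its value was seen, was the kinase gene Taok2 (2.07 ± 0.13).

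Between the tumors, 8 of the 22 were lower in 57SCLC_allo than in 46LCNEC_allo and 2 were higher (14.2% and 16.1% of all genes), with a median of -0.78 against 0.01 for all genes. Fat4 was at 65.9 against 4179 normalized counts, the membrane scaffold gene Frmd6 at 409.7 against 2936, and the angiomotin genes Amot and Amotl1 at 566 against 4538 and at 1784 against 8754. The 2 higher genes, named after their values were seen, were Wwc1 (3.02 ± 0.22) and Taok2 (1.24 ± 0.09). Against Lung, 11 were lower and none higher in 57SCLC_cell (32.7% and 21.1% of all genes), with a median of -0.93 against -0.12. The other comparisons with Lung gave 7 lower and 1 higher in 57SCLC_allo (26.9% and 18.9% of all genes, median -0.82 against -0.09), 4 lower and 4 higher in 46LCNEC_cell (35% and 20.6%, median -0.06 against -0.23) and 4 lower and 2 higher in 46LCNEC_allo (22.1% and 13.4%, median 0.03 against -0.14). Nothing particular to the cassette was read from these counts. From culture to tumor, 4 rose and none fell in 57SCLC (Wwc2, Dchs1, Ajuba and Amotl1), where 14.4% and 2.29% of all genes did, and 1 rose and 2 fell in 46LCNEC, where 14.4% and 8.45% did.

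A further 18 target genes of YAP and TAZ were measured beside Ccn1 and Ccn2. In 57SCLC_cell against 46LCNEC_cell 14 were lower and 1 was higher (22.2% and 23.9% of all genes), with a median log2 change of -3.80 against 0.00 for all genes. The phosphatase gene Ptpn14 was at 75.5 against 7721 normalized counts (limma adjusted p = 3.9e-09). The receptor tyrosine kinase gene Axl had 3 or fewer reads in each flask of 57SCLC_cell and 17337 normalized counts on average in 46LCNEC_cell, and Ccdc80 and Ankrd1 were likewise at 3 or fewer reads in the 57SCLC flasks against 5009 and 1445. The 1 higher gene, named after its value was seen, was the kinase gene Nuak2, at 2370 against 886 (1.41 ± 0.10, adjusted p = 4.2e-06). In the tumors 11 of the 18 were lower in 57SCLC_allo than in 46LCNEC_allo and none was higher (14.2% and 16.1% of all genes), with a median of -2.02 against 0.01. Ccdc80, Myof, Tgfb2 and Rbms3 had the smallest adjusted p.

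Against Lung, 13 of the 18 targets were lower and 1 higher in 57SCLC_cell (32.7% and 21.1% of all genes, median -5.38 against -0.12), and 12 were lower and 1 higher in 57SCLC_allo (26.9% and 18.9% of all genes, median -1.47 against -0.09). In 46LCNEC_cell 5 were higher and 6 lower, near the 20.6% and 35% of all genes (median 0.45 against -0.23), with Axl, Myof and Ccdc80 up and Nt5e, the gene of an ecto-nucleotidase, down. In 46LCNEC_allo 5 were higher and 3 lower (13.4% and 22.1% of all genes, median 0.40 against -0.14). From culture to tumor, 8 of the 17 tested in 57SCLC rose and none fell (14.4% and 2.29% of all genes, median 1.86), led by Igfbp3, Ccdc80, Axl and Fjx1. In 46LCNEC 5 of the 18 rose and 3 fell (14.4% and 8.45% of all genes, median -0.15), with Igfbp3 going from 564 to 30218 normalized counts. The fibroblast, endothelial and leukocyte markers given above rose from culture to tumor in both lines, and their part in these changes was not tested.

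**Figure D5:**
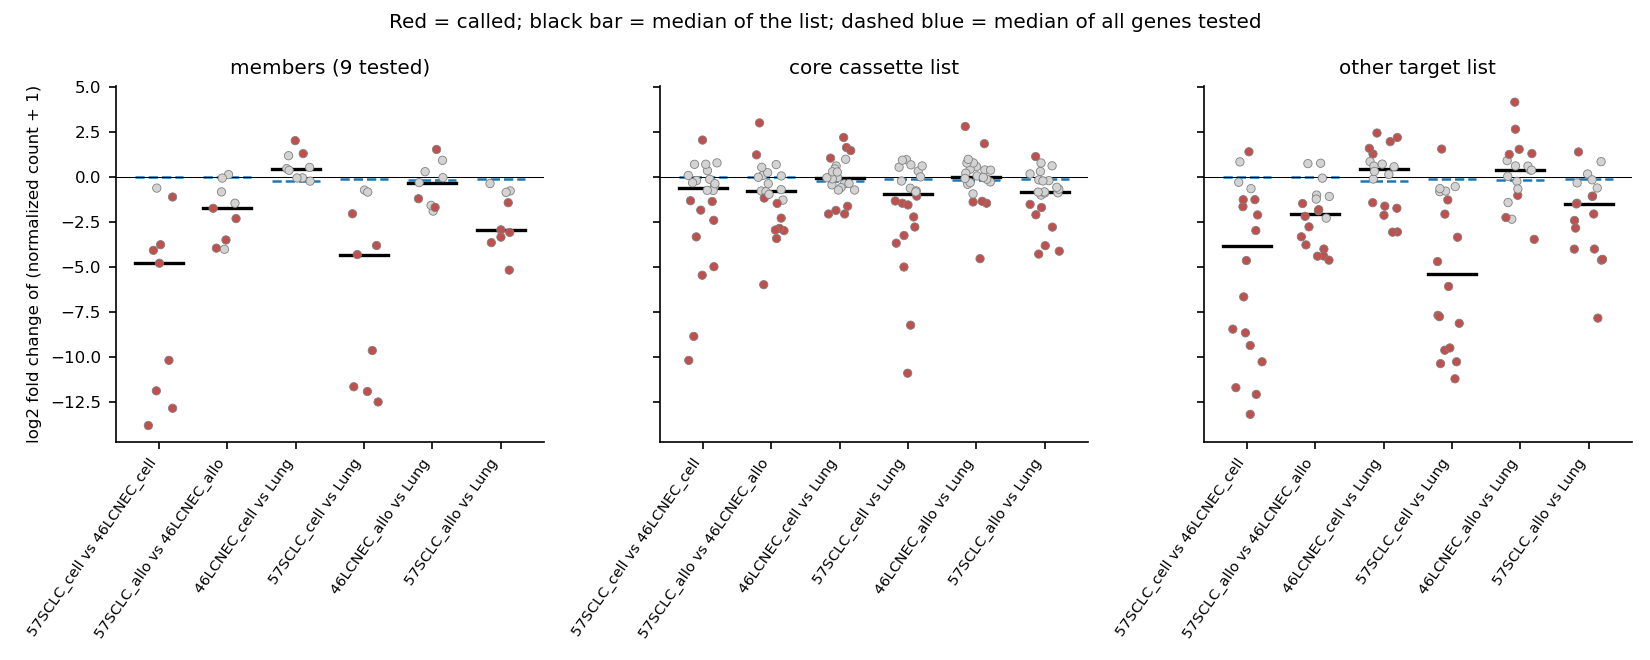
Log2 fold change of the normalized count plus 1 (y) in 6 comparisons (x) for the 9 tested genes, the 22 genes of the cassette and the 18 further targets, with called genes in red, a black bar at the median of the list and a dashed line at the median of all genes tested. The bar of the further targets is at -5.38 for 57SCLC_cell against Lung and at 0.45 for 46LCNEC_cell against Lung, whereas that of the cassette stays between -0.93 and 0.03.

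The Vgll genes code for cofactors that compete with YAP and TAZ for TEAD binding. Vgll4, the member known as a repressor, was at 4835 normalized counts on average in 57SCLC_cell and 2033 in 46LCNEC_cell (1.24 ± 0.14, limma adjusted p = 8.4e-05). It averaged 4081 in Lung, 3610 in 57SCLC_allo and 3335 in 46LCNEC_allo, so 46LCNEC_cell was the lowest group. Vgll3 was at 1095 in 46LCNEC_cell, 1246 in Lung and 312 in 57SCLC_allo, ranged from 7.37 to 321 over the 46LCNEC tumors, and had 5 or fewer reads in each 57SCLC flask. Vgll1 was seen in the 57SCLC tumors alone above the floor of 3 reads, at 13.6 to 24.1 normalized counts, and Vgll2 was at most 14.6 in any sample.

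Across the 15 samples, the genes whose log2 levels were most like that of Yap1 were Map3k20 (Pearson r = 0.97), Ptgr1 (0.95) and Tbc1d5 (0.95), and those most like Wwtr1 were Jak1, Stambpl1 and Tmem98 (r = 1.00 each to 2 decimals) among 19626 genes. Within the set itself, Yap1 was most like Tead3 (r = 0.94) and Wwtr1 most like Ccn1 (0.96), Tead4 (0.95) and Ccn2 (0.95). The points are 5 groups of 3 samples, so these values describe the order of the groups more than 15 separate observations.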

How the data were processed

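RNA of 15 samples, 3 in each of 5 groups, had been sequenced as poly-A selected paired reads. Per the labels and the study's methods, the authors used Rbowtie2 for alignment to GRCm39 and featureCounts with GENCODE M27 for gene counts, and divided each sample's counts by its DESeq2 size factor, so the deposited values are a signal, here called normalized counts, not raw counts. The strand setting and the treatment of reads with several alignments are not given in the sources used here.

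In every sample 100% of the values were whole multiples of 1 step (within 0.001), which gave back the reads. On these reads the edgeR quasi-likelihood test called 4118 genes higher and 3682 lower between the cultured lines, against 4043 and 3756 with limma. Groups came from the sample titles. Each comparison is a limma 3.58.1 fit (R 4.3.3) with a mean-variance trend to its 6 samples, or 12 for the interaction, after adding a pseudocount of 1 to the normalized counts and taking log2. Genes had to reach 10 normalized counts in 3 or more of those samples. Fold changes in the text are ratios of group means, log2 changes are fitted on the log2(value + 1) scale, which understates low genes, and calls needed both a log2 change of 1 or more in size and a Benjamini-Hochberg adjusted p that did not exceed 0.01. A permutation of 3 against 3 samples cannot go below p = 0.1, so none is given. Against a group with 3 or fewer reads in every sample, folds are lower bounds from 3 reads in its shallowest library; floors cover counting error only.

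The genes and lists were chosen with earlier results of these data known. All 10 genes are named, with at most 4 called genes of the smallest adjusted p for each list and comparison, 3 genes most like Yap1 and Wwtr1, and cell type markers; lists of up to 4 genes and the Yap1 neighbours may be named freely. Lists were the 22 cassette genes, 4 Vgll cofactors, 18 further targets and 23 neighbours of Yap1. Coordinates and exon lengths came from GENCODE M39 on GRCm39, promoters from RefSeq. Alternatives were edgeR 4.0.16 and DESeq2 1.42.0 on the recovered reads, pseudocounts of 0.1 and 5, no filter, TMM or library-size scaling, all 15 samples in 1 model, an adjusted p of at most 0.05, a replicate block, another gene length and leaving out each sample. The fits were tested on simulated data. A planned comparison of the Tead proteins was not run, and 1 item of the genotype is not reported here. Python 3.11.15 and matplotlib 3.10.9 were used for the rest.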

Additional observations from a re-analysis of the deposited data

Results flagged for a closer look

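The difference between the lines in tumors minus that in culture passed the threshold of the interaction test (limma, Benjamini-Hochberg adjusted p over all genes, 12 samples) for 7 genes, which is what set them apart. Their terms were 7.94 for Wwtr1, 1.05 for Tead1, 1.76 for Tead2, 6.69 for Tead4, 11.40 for Ccn1, 13.96 for Ccn2 and 3.05 for Amotl2 on the log2 scale, each positive. Those of Wwtr1, Tead4, Ccn1 and Ccn2 start from 12 or fewer reads in each 57SCLC flask. The markers of fibroblasts, endothelium and leukocytes rose from culture to tumor in both lines, and their part in these terms was not tested.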

How the results depend on the processing

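Of the alternative values for the counts of called genes, 138 stayed within 1.5 times the reported count and 4 did not. For 46LCNEC_allo against Lung the count of 3 became 5 with DESeq2, 5 with all 15 samples in 1 model and 5 at an adjusted p of at most 0.05, each time with Ccn1 and Ccn2 added. For 57SCLC_allo against 46LCNEC_allo the count of 4 became 7 without tumor 321. Leaving out each sample in turn gave 3 to 4 called genes for 46LCNEC_allo, 5 to 6 for 57SCLC_allo, 2 to 2 for 46LCNEC_cell and 7 to 7 for 57SCLC_cell, each against Lung, 8 to 8 between the cultured lines, 4 to 7 between the tumors, 4 to 4 and 6 to 6 from culture to tumor in 46LCNEC and 57SCLC, and 6 to 7 for the interaction.

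Some changes of single genes that had not been called turned sign. For 46LCNEC_allo against Lung, Tead3 had 0.055 with TMM scaling, 0.086 with edgeR and 0.072 with DESeq2, and -0.23 to 0.19 over the samples left out, and Yap1 had -0.30 to 1.63. For 46LCNEC_cell against Lung, Yap1 had 0.076 with TMM, 0.089 with edgeR, 0.051 with DESeq2 and -0.098 to 0.0040 over the samples left out, and Wwtr1 had 0.084, 0.093, 0.055 and -0.086 to 0.0077. Between the tumors, Tead1 had 0.21 with library-size scaling and -0.16 to 0.11 over the samples left out, and Ccn2 -0.30 to 0.54. From culture to tumor, Yap1 had -0.25 to 1.67 and Tead3 -0.011 to 0.41 in 46LCNEC, and Tead3 -0.10 to 0.087 in 57SCLC. The interaction of Yap1 had -0.94 to 0.98. The lower Yap1 in 57SCLC_allo than in 46LCNEC_allo passed the threshold with edgeR (-5.08, adjusted p = 0.0099) and with all samples in 1 model (adjusted p = 0.00015), and DESeq2 gave no adjusted p for it. The cause was not tested.

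Samples of cultured cells were lettered A to C in each line. Deviations of samples of the same letter correlated at 0.09, -0.08 and -0.01, so the letters were not taken as pairs, and a fit with the replicate block called 8 genes, as without it. Counts near 0 limit the fold changes of Wwtr1 and Ccn2, which had 3 or fewer reads in each 57SCLC flask, and of Tead4 and Ccn1, with at most 12. Lats2 also had 3 or fewer reads there and was low in all samples. These flasks were the deepest libraries, at 37368046 to 44876572 reads. With 3 samples in a group, and 1 line of each kind, no value separates the line from its tumor type.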
